A study of Mus musculus with 2 samples.

Results

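The 10 genes described here, Pecam1, Cdh5, Esam, Emcn, Egfl7, Robo4, Tie1, Tek, Angpt1 and Angpt2, encode junction and surface proteins of endothelial cells and the angiopoietin system. They were chosen by symbol from 43346 gene rows, and all 10 passed the filter of a mean of at least 1 TPM (transcript abundance per length and depth). Polyadenylated RNA came from the whole lung of a single female C57BL/6J mouse, an inbred strain, at an adult age of 10 weeks. It was sequenced in 2 libraries, technical replicate 2 and technical replicate 1 of the same biological replicate, with no treatment and no genetic alteration in the labels. Per the labels, replicate 2 was made later and is absent from the publication that first used these data. The labels do not state whether the libraries share 1 RNA extraction or 1 library protocol, so a gap between them can arise at any of these steps. The study has 1 group, so the comparison open to these genes is between the libraries, replicate 2 over replicate 1. Each side has 1 library, so no difference has a replicate check, and every SD is over n = 2 technical replicates and says nothing of the spread between animals.

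Endothelial cells line vessels and are held together by adherens and tight junctions, which set how readily fluid and cells leave the blood. Angiopoietin 1, made largely by cells around the vessel, activates the endothelial receptor tyrosine kinase Tek (also called Tie2) and keeps junctions closed, and angiopoietin 2, released by the endothelium, opposes or replaces it depending on context. Tie1 binds no angiopoietin on its own with high affinity and modulates Tek. In the lung this system acts on a capillary bed that covers the alveoli.

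The sequences below show the base composition of coding parts of these mRNAs, since the difference between the libraries was related to the GC content of whole transcripts. For 4 genes the first window of 100 coding bases at the median GC content of all such windows within single exons is printed, on GRCm38 and on the gene's strand, with runs of at least 4 consecutive G or C in capitals. The Egfl7 window (chr2:26590914-26591013, plus strand) and the Tie1 window (chr4:118486586-118486685, minus strand) have 59.0% and 60.0% GC. The Tek window (chr4:94780917-94781016, plus strand) and the Angpt1 window (chr15:42676360-42676459, minus strand) both have 48.0%. Their whole transcripts differ more, with a mean GC content of 47.9% in Tek and 39.3% in Angpt1. The capitalised runs number 5 in Egfl7, 4 in Tie1, 2 in Tek and 1 in Angpt1. Over all coding windows GC content ran between 54% and 66.0% in Egfl7, 47.0% and 71.0% in Tie1, 34.0% and 62.0% in Tek, and 30.0% and 58% in Angpt1.
Egfl7: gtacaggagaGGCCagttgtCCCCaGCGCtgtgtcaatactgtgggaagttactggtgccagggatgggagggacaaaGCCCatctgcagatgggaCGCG
Tie1: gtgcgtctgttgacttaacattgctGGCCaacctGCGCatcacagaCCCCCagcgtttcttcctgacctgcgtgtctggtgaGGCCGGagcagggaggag
Tek: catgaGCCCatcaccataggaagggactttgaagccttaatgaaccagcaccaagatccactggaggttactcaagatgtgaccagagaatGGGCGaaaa
Angpt1: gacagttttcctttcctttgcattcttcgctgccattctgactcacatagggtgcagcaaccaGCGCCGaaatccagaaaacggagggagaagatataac

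Replicate 2 held 17110871 expected counts, the authors' estimates of reads per gene, and replicate 1 held 16104423. Genes with a TPM above 0 numbered 19586 in replicate 2 and 17890 in replicate 1. All 12 endothelial markers outside the 10 genes were above 0 in both libraries, and they summed to 1503 TPM in replicate 2 and 531 in replicate 1. Past 2-fold, replicate 2 had 4 of these 12 higher and 2 lower, and the other 6 differed by less. Among all genes tested, 39.3% were higher and 28.2% lower past 2-fold. The 6 lymphatic endothelial markers summed to 282 and 329 TPM in replicate 2 and replicate 1, with 2 higher, 3 lower and 1 within 2-fold. The 5 lung epithelial markers summed to 216480 and 18001 TPM in that order, with 3 higher, 1 lower and 1 within 2-fold. The endothelial sum includes Cldn5, at 607 TPM in replicate 2 and 0.43 in replicate 1, and Plvap, at 325 and 10.1. The median log2 ratio of the 12 endothelial markers was -0.23. With the GC trend described below subtracted, 3 of the 12 were higher, 4 lower and 5 within 2-fold. After that step 21.4% of all genes were higher and 19.6% lower. Cldn5 passed the filter only through replicate 2. The lymphatic marker Prox1 passed it only through replicate 1, at 1.69 TPM against 0.4 in replicate 2. In whole lung of 1 animal, fewer cells of a type, less RNA per cell and a gap from library making cannot be told apart.

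Together the 10 genes accounted for 1551 TPM in replicate 2 and 721 in replicate 1, which averages 1136 ± 587 TPM (SD, n = 2). These sums are 0.155% and 0.0721% of all TPM. After scaling of the counts between libraries with TMM factors, which trim extreme genes, 5 of the 10 genes were over 2-fold higher in replicate 2 (Pecam1, Esam, Egfl7, Robo4 and Tie1). Over 2-fold lower were 3 (Emcn, Tek and Angpt1), and Cdh5 and Angpt2 lay within 2-fold. Past 2-fold, 5557 of the 14139 genes tested (39.3%) were higher in replicate 2 and 3985 (28.2%) were lower, so gaps of this size were common in the whole table. The median log2 ratio was 1.17 over the 10 genes and 0.19 over all genes tested. With scaling by total counts in place of TMM, Emcn and Tek lay within 2-fold, at log2 ratios of -0.80 and -0.78, which leaves 5 genes higher and 1 lower. That scaling put the median of all genes at 0.45, and ratios of TPM put it at 0.01. Every fold change below uses TMM-scaled counts, and its 95% interval covers counting error only.

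**Figure D1:**
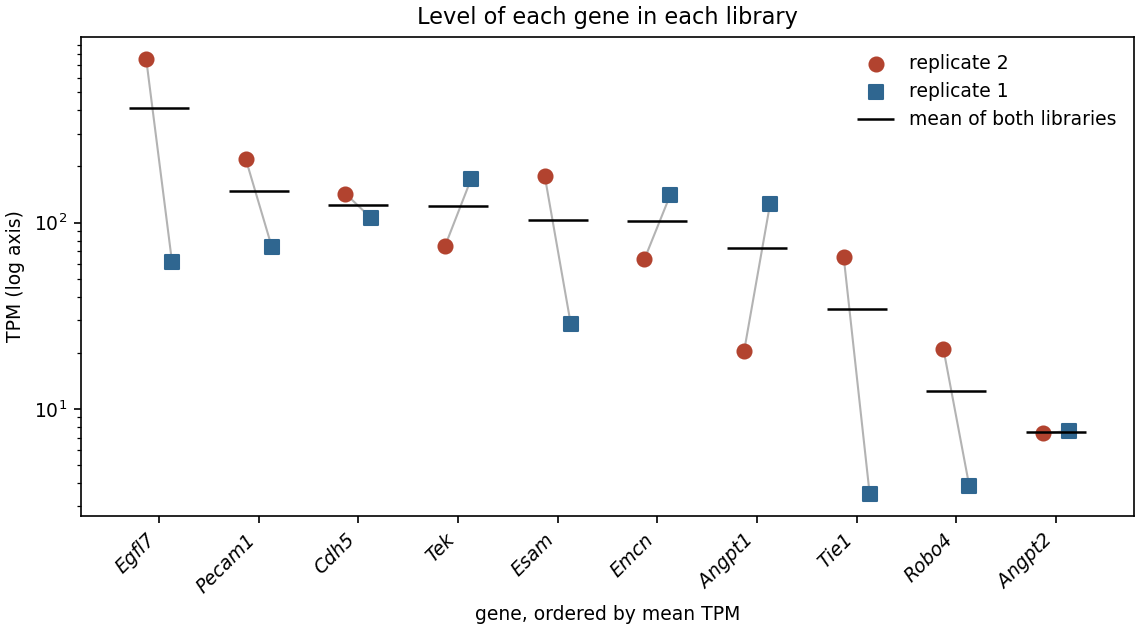
TPM of each gene (log axis) in replicate 2 (red circles) and replicate 1 (blue squares) of 1 mouse lung, with the mean of both libraries as a black bar and genes ordered by that mean. Egfl7 is highest in replicate 2 at 759 TPM and Tek is highest in replicate 1 at 171 TPM, while Angpt2 has nearly the same level in both libraries.

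Among the junction proteins, Cdh5 differed least between the libraries. Cdh5 encodes VE-cadherin, the adhesion molecule of endothelial adherens junctions (ENSMUSG00000031871.8, GRCm38 chromosome 8, 104101625 to 104144511, plus strand). It had 143 TPM in replicate 2 and 105 in replicate 1, which averages 124 ± 26.7 TPM (SD, n = 2), and ranked 745th and 1186th among all genes. Its counts were 8584 and 4482 in replicate 2 and replicate 1, a log2 ratio of 0.59 and a 1.5-fold higher level in replicate 2 (1.45 to 1.56). The gap exceeds counting error but stays within 2-fold.

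Pecam1 encodes CD31, an immunoglobulin-family adhesion molecule of endothelial contacts that platelets and leukocytes also carry (ENSMUSG00000020717.15, chromosome 11, 106654217 to 106750628, minus strand). Its level was 219 TPM in replicate 2 and 74.4 in replicate 1, on 10331 and 2422 counts. Replicate 2 was 3.35-fold higher (3.20 to 3.50), although the mean GC content of the gene's annotated transcripts, 49.8%, lay near the median of 50.3% over all genes. The TPM ratio of Pecam1 to Cdh5 was 1.53 in replicate 2 and 0.706 in replicate 1, so the order of the pair turned round between libraries. Of 7 platelet markers 4 passed the filter, with 3 higher and 1 lower in replicate 2, and the list summed to 73.3 TPM in replicate 2 and 60.7 in replicate 1. Its member Gp9 had 2.93 TPM in replicate 2 and was listed at 0 in replicate 1, and Itga2b had 6.4 and 0.03 TPM. Both passed the filter only through replicate 2, so the filter fixed their direction. The 6 leukocyte markers summed to 125 TPM in replicate 2 and 139 in replicate 1, with 3 higher, 1 lower and 2 within 2-fold. Of all genes tested, 39.3% were higher and 28.2% lower. The part of these cells in the Pecam1 gap was not tested.

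Esam encodes an endothelial cell adhesion molecule found at tight junctions (ENSMUSG00000001946.9, chromosome 9, 37528078 to 37538319, plus strand). It had 178 TPM in replicate 2 and 28.7 in replicate 1, on 4644 and 519 counts. Replicate 2 was 7.02-fold higher (6.41 to 7.70), the widest gap among the 3 junction genes. The junction genes therefore stood at Pecam1, Esam, Cdh5 from high to low in replicate 2, and at Cdh5, Pecam1, Esam in replicate 1.

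Emcn was the surface gene with the opposite direction. It encodes endomucin, a sialomucin of capillary and venous endothelium that hinders leukocyte adhesion (ENSMUSG00000054690.13, chromosome 3, 137341067 to 137432185, plus strand). Its level was 63.6 TPM in replicate 2 and 141 in replicate 1, on 1332 and 2187 counts. Replicate 2 was 2.09-fold lower (1.95 to 2.24), just past the 2-fold line.

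Egfl7 encodes a secreted protein with EGF-like domains that endothelial cells deposit around vessels (ENSMUSG00000026921.14, chromosome 2, 26580014 to 26593120, plus strand). It reached 759 TPM in replicate 2, rank 161, against 61.3 TPM in replicate 1, rank 2023. The counts were 10289 in replicate 2 and 311 in replicate 1, a 25.9-fold higher level in replicate 2 (23.2 to 29.2), which no other of the 10 genes reached. The log2 ratio of TPM was smaller, 3.63 against 4.70 for counts, because TPM divides by the length of the transcripts assigned and these differed between libraries. Egfl7 held 48.9% of the TPM of all 10 genes in replicate 2 and 8.50% in replicate 1, so it weighs on their sum. Exons of Agpat2 overlap Egfl7 on the opposite strand, and Agpat2 had 47.8 TPM in replicate 2 and 0.88 in replicate 1. Whether counting used strand is not given in the sources used here, so reads of the overlap cannot be assigned with certainty.

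Egfl7 also hosts an endothelial microRNA, mmu-miR-126a, in intron 7 of Egfl7-202 (26591064 to 26591663). Its 3p arm lies at chr2:26591402-26591423 on the plus strand, and its mature sequence from RefSeq is shown with the seed, bases 2 to 8, in capitals because the host gene had the widest gap between libraries.
mmu-miR-126a-3p: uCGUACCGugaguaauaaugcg
The gene row of its precursor was listed at 0 in both libraries. Libraries of polyadenylated RNA do not measure mature microRNAs, so that 0 says nothing of their level.

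Robo4 encodes the endothelial member of the roundabout receptors, known for stabilising vessels (ENSMUSG00000032125.15, chromosome 9, 37401897 to 37415115, plus strand). It had 21.01 TPM in replicate 2 and 3.85 in replicate 1, on 1180 and 151 counts, and was 6.12-fold higher in replicate 2 (5.17 to 7.31). Robo4 and Esam are neighbours on chromosome 9, separated by 112962 bases. Their levels kept nearly the same proportion, with Esam at 8.45 times the TPM of Robo4 in replicate 2 and 7.46 times in replicate 1. Mean transcript GC content was 55.7% for Esam and 57.7% for Robo4. With the GC trend described below subtracted, the pair parted, with Esam at a log2 value of -0.18 and Robo4 at -1.46. A link to their position was not tested.

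The angiopoietin receptors differed in opposite directions. Tie1 (ENSMUSG00000033191.10, chromosome 4, 118471191 to 118490061, minus strand) had 65.0 TPM in replicate 2 and 3.50 in replicate 1, on 4012 and 157 counts. Replicate 2 was 20.0-fold higher (17.1 to 23.7). Tek (ENSMUSG00000006386.11, chromosome 4, 94739289 to 94874976, plus strand) had 74.97 TPM in replicate 2 and 171 in replicate 1, on 5152 and 8341 counts. Replicate 2 was 2.06-fold lower (1.99 to 2.14). As a result the receptor mRNAs were close to equal in replicate 2, at 1.15 Tek per Tie1 by TPM, whereas replicate 1 held 48.8 Tek per Tie1. Ptprb, the endothelial phosphatase VE-PTP that acts on Tek and VE-cadherin, kept step with Tek. It had 47.2 TPM in replicate 2 and 98.0 in replicate 1, which gives a Tek to Ptprb ratio of 1.59 in replicate 2 and 1.74 in replicate 1.

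The ligands also changed in proportion. Angpt1 (ENSMUSG00000022309.8, chromosome 15, 42424723 to 42676977, minus strand) had 20.4 TPM in replicate 2 and 125 in replicate 1, on 1311 and 5703 counts. Replicate 2 was 5.54-fold lower (5.22 to 5.89), the widest gap in that direction among the 10 genes. Angpt2 (ENSMUSG00000031465.6, chromosome 8, 18690263 to 18741562, minus strand) had 7.39 TPM in replicate 2 and 7.62 in replicate 1, on 394 and 288 counts. Its ratio was 1.07 (0.920 to 1.25), an interval that includes 1. With scaling by total counts its log2 ratio was 0.36, a shift beyond that interval, so whether Angpt2 differed depends on the scaling. Angpt1 stood at 2.76 times the TPM of Angpt2 in replicate 2 and at 16.4 times in replicate 1, and Angpt1 was above Angpt2 in both libraries. The 9 pericyte and smooth muscle markers, the cells taken as a main source of Angpt1, summed to 739 TPM in replicate 2 and 111 in replicate 1. Most of that sum was Acta2, at 335 and 37.0 TPM in replicate 2 and replicate 1, and Tagln, at 329 and 37.4. Of these markers 7 were higher past 2-fold in replicate 2, beside 39.3% of all genes, and 2 were lower, beside 28.2%. The lower markers, in the direction of Angpt1, were Rgs5, at 3.94 and 16.5 TPM, and Abcc9, at 1.84 and 5.16. Among the higher ones Cspg4 passed the filter only through replicate 2, at 3.01 TPM against 0.06. Their median GC content was 52.5%, and that of Angpt1 was 39.3%. With the GC trend described below subtracted, 2 markers were higher, 1 was lower and 6 lay within 2-fold, and Angpt1 was at -0.42. After the same step 21.4% of all genes were over 2-fold higher and 19.6% lower. The part of these cells in the Angpt1 gap was not tested. The gene Gm17473, which has no functional name, overlaps Angpt1 exons on the opposite strand and had 0.91 TPM in replicate 2 and 4.03 in replicate 1.

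By mean TPM the genes ran in the order Egfl7 (410 ± 493), Pecam1 (147 ± 102), Cdh5 (124 ± 26.7), Tek (123 ± 67.7), Esam (103 ± 105), Emcn (102 ± 54.7), Angpt1 (72.8 ± 74.1), Tie1 (34.3 ± 43.5), Robo4 (12.4 ± 12.1) and Angpt2 (7.50 ± 0.163; SD, n = 2 each). For all 9 pairs of neighbours in this order the ranges of both libraries overlapped, so no neighbour is separated from the next. Of the 45 possible pairs, 23 had the same order in both libraries and 16 had ranges that did not overlap. Replicate 2 placed Egfl7, Pecam1 and Esam at the top and Angpt2 last, and replicate 1 placed Tek, Emcn and Angpt1 at the top and Tie1 last. Spearman's rho between the libraries was 0.10 over the 10 genes, which share both libraries and are given as a description.

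The gaps were related to GC content, with Pecam1 and Robo4 farthest from the trend among the higher genes. The 5 genes of higher level in replicate 2 had mean transcript GC contents of 49.8% (Pecam1), 55.7% (Esam), 57.4% (Egfl7), 57.7% (Robo4) and 57.8% (Tie1). Those over 2-fold lower had 39.3% (Angpt1), 42.4% (Emcn) and 47.9% (Tek), and the others had 52.2% (Cdh5) and 49.1% (Angpt2). Spearman's rho between GC content and log2 ratio was 0.93 over the 10 genes and 0.83 over the 14107 tested genes with a transcript sequence. Across the table the median log2 ratio was -2.0 for 1165 genes under 42% GC, and it was 3.07 for 2787 genes between 54% and 58% GC. The relation is thus one of the whole table. Pecam1, close to the median GC content, had a log2 ratio of 1.74 where the trend of all genes lay at 0.16, and Robo4 had 2.61 where the trend lay at 4.07.

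**Figure D2:**
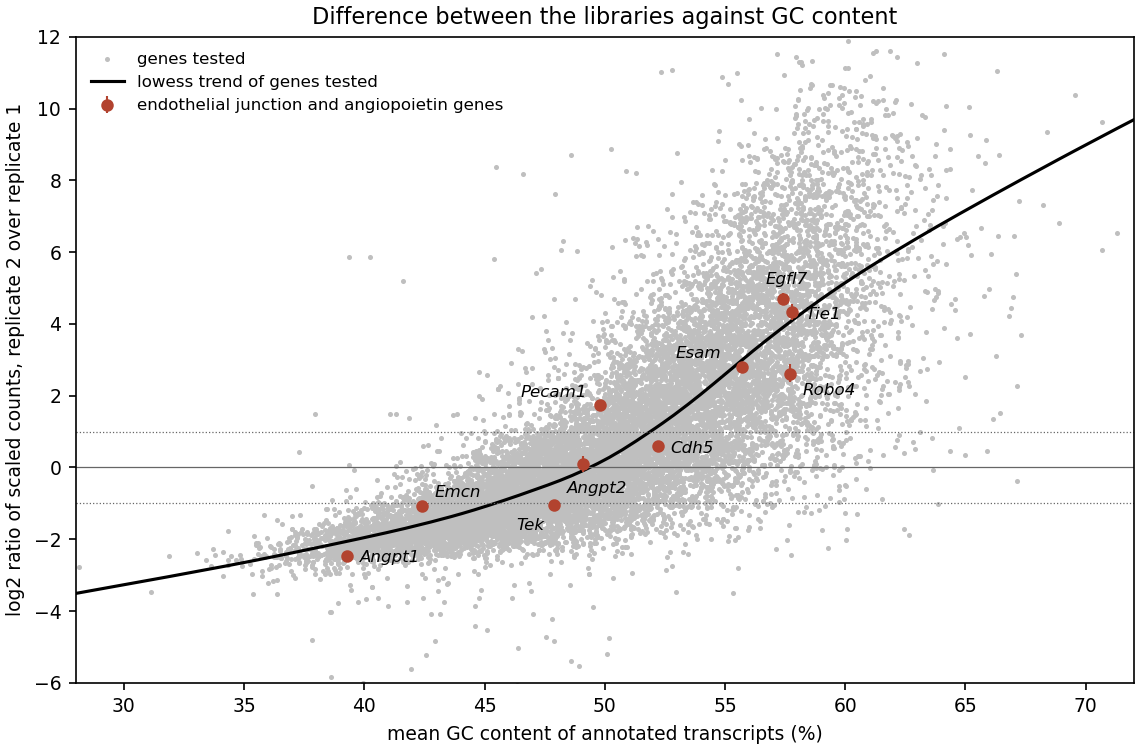
Log2 ratio of TMM-scaled counts, replicate 2 over replicate 1, against the mean GC content (%) of each gene's annotated transcripts. Grey points are 14107 genes tested, of which 20 fall outside the axes, the black line is their lowess trend, dotted lines mark 2-fold, and red points are the 10 genes with 95% counting intervals; Pecam1 lies above the trend and Robo4 below it.

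Subtraction of that trend left 8 of the 10 genes within 2-fold of genes of like GC content. Pecam1 stayed higher, at a log2 value of 1.59, and Robo4 became lower, at -1.46. Among all genes, 21.4% stayed over 2-fold higher and 19.6% over 2-fold lower after the same step. Tie1 and Egfl7, with the widest gaps, came to 0.21 and 0.82, and Tek and Angpt1 to -0.61 and -0.42. Emcn came to 0.51, Esam to -0.18, Cdh5 to -0.55 and Angpt2 to 0.18. The median was 0.00 over the 10 genes and -0.02 over all genes. With GC content taken from the transcript of highest mean TPM instead, Pecam1 was at 1.31 and Robo4 at -2.26, again the 1 gene higher and the 1 gene lower, beside 18.4% and 16.2% of all genes. The part of GC content in these gaps was not tested.

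Transcript assignment also differed between the libraries, by the deposited percent of each gene's abundance held by each annotated transcript. Of the 8 genes with more than 1 annotated transcript, the leading transcript differed in 3 (Pecam1, Egfl7 and Tie1). In the whole table it differed in 3306 of 9700 genes, or 34.1%. The shares are estimates that divide reads among overlapping transcripts, and a transcript listed at 0 may be one to which no read was assigned.

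**Figure D3:**
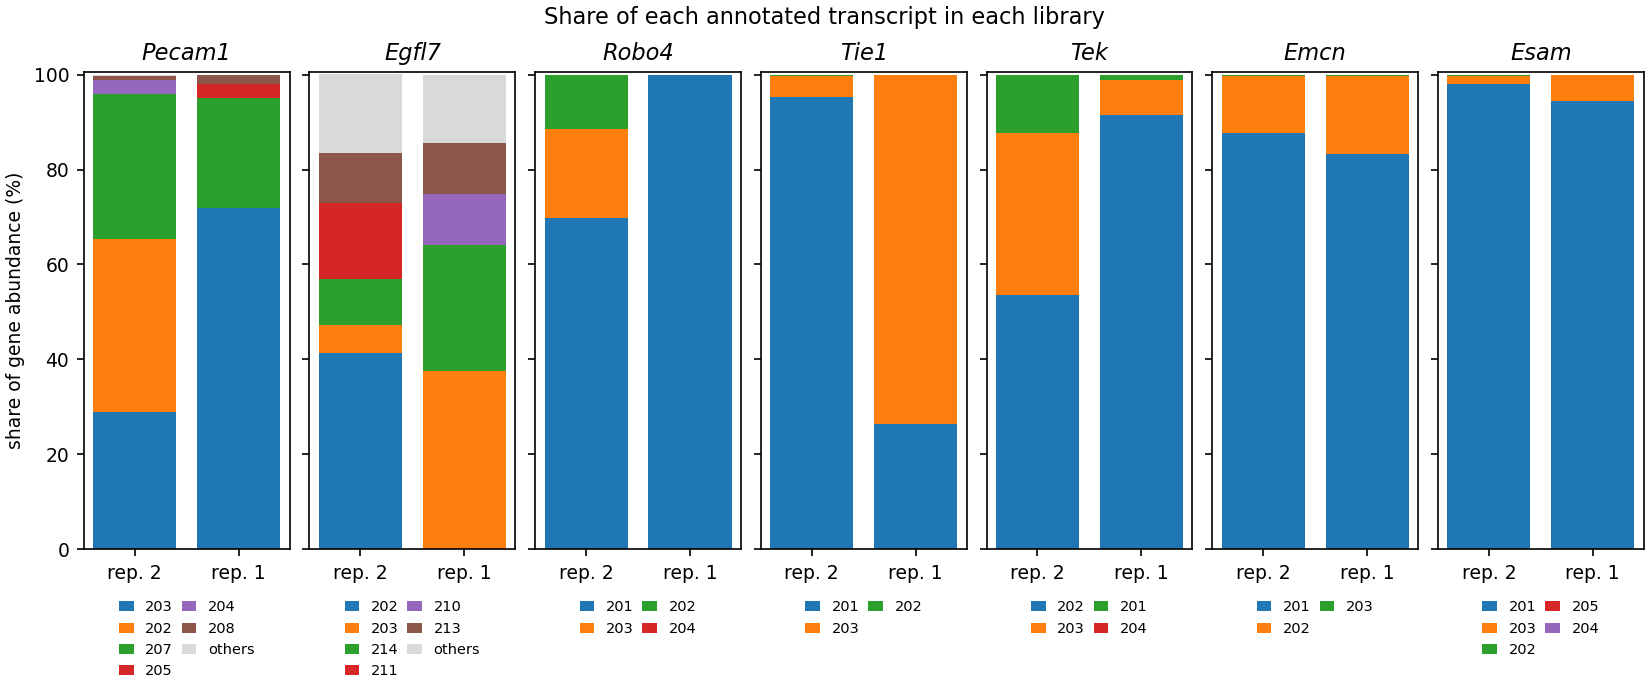
Share (%) of each gene's abundance held by its annotated transcripts in replicate 2 (left bar) and replicate 1 (right bar) for 7 genes, with colours for the transcript number within a gene. The leading transcript differs between the bars in Pecam1, Egfl7 and Tie1, and Tek-202 leads in both with 53.7% in replicate 2 and 91.5% in replicate 1.

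In Pecam1 the transcripts differ by single exons, among them exons of the cytoplasmic tail, whose alternative splicing is well known. Pecam1-202 held 36.5% in replicate 2 and was listed at 0 in replicate 1. Pecam1-203 held 28.9% in replicate 2 and 71.9% in replicate 1, and Pecam1-207 held 30.6% in replicate 2 and 23.1% in replicate 1. The exon that separates Pecam1-202 from Pecam1-203 has 57 bases and 57.9% GC (chr11:106671742-106671798, minus strand), and transcripts that contain it held 70.1% in replicate 2 and 23.2% in replicate 1. A second tail exon of 23 bases and 34.8% GC (chr11:106662002-106662024, minus strand) was in 34.4% of the abundance in replicate 2 and 25.1% in replicate 1. A coding exon of 303 bases and 48.5% GC, absent from Pecam1-207, was in 68.5% in replicate 2 and 75.1% in replicate 1. Of these 3 Pecam1 exons, the one of highest GC content differed most in inclusion, and a link between GC content and inclusion was not tested.

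In Tek a coding exon of 153 bases and 53.6% GC (chr4:94799127-94799279, plus strand) is present in Tek-201 and Tek-203 and absent from Tek-202. Transcripts with it held 46.3% of Tek abundance in replicate 2 and 8.50% in replicate 1. Tek-202 led in both libraries. Both exons are printed in capitals with 15 bases of the adjoining exons on each side, since their inclusion carries the difference in transcript shares.
Tek exon: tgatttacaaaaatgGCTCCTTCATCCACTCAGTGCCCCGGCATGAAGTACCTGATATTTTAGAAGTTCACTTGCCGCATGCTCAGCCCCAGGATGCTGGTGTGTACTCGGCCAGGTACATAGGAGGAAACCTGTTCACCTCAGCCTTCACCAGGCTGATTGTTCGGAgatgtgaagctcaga
Pecam1 exon: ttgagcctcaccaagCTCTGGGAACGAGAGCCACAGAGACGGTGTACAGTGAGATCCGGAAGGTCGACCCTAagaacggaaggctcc
The Emcn exon of 39 bases, with 38.5% GC, was in 12.2% of Emcn abundance in replicate 2 and in 16.8% in replicate 1, a small gap beside those of Tek and Pecam1.

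Tie1 showed the widest change in a single transcript. Tie1-201, with the full coding sequence of 3402 bases, held 95.2% in replicate 2 and 26.4% in replicate 1. Tie1-203, which keeps an intron of 460 bases and 53.7% GC (chromosome 4, 118479153 to 118479612, minus strand), held 4.43% in replicate 2 and 73.6% in replicate 1. In counts, Tie1-201 had 3818 in replicate 2 and 40.4 in replicate 1, and Tie1-203 had 184 in replicate 2 and 117 in replicate 1. The gap of the gene thus lay mostly in Tie1-201, whose share in replicate 1 rests on few reads.

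Egfl7 has 19 annotated transcripts, and its reads spread over many of them. Egfl7-202 held 41.3% in replicate 2 and was listed at 0 in replicate 1, where Egfl7-203 led with 37.5% against 5.86% in replicate 2. The 5 transcripts with a full coding sequence held 51.0% in replicate 2 and 0.610% in replicate 1, on 7246 and 4.10 expected counts. The 7 transcripts that cover only the 3' part held 44.9% in replicate 2 and 75.3% in replicate 1, on 2597 and 237 expected counts. Replicate 1 therefore recorded Egfl7 almost without the forms of full coding sequence. Egfl7-204, the longest transcript at 1865 bases, is annotated for nonsense-mediated decay and is in neither group. It had 223 expected counts in replicate 2 and 41.2 in replicate 1.

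Robo4, Emcn and Esam kept their leading transcript. Robo4-201 held 69.8% in replicate 2 and 100% in replicate 1, on 151 counts, with Robo4-202 and Robo4-203 at 11.5% and 18.8% in replicate 2. A coding exon of 333 bases and 60.7% GC, absent from Robo4-203 (chromosome 9, 37402555 to 37402887, plus strand), was in 81.3% of Robo4 abundance in replicate 2 and in 100% in replicate 1. By these shares its inclusion was lower in replicate 2, unlike that of the Tek exon and the Pecam1 exon of 57 bases. Its GC content was the highest of the exons compared. By the deposited posterior mean percent, however, Robo4-203 held 16.5% in replicate 2 and 12.1% in replicate 1. The size of this gap thus depends on the estimate used. The deposited length of Robo4-201, 3689 bases, differs from 3226 bases in the reference annotation. That of Robo4-203, 3860 bases, differs from 3392 bases, so the structure of both is uncertain. Emcn-201 held 87.8% in replicate 2 and 83.2% in replicate 1, and Esam-201 held 98.0% in replicate 2 and 94.4% in replicate 1. Angpt2-201 held 100% in both libraries, and Cdh5 and Angpt1 have 1 annotated transcript each.

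Other genes of the same systems also differed between the libraries in both directions, beside 39.3% of all genes higher and 28.2% lower in replicate 2. Of 22 further junction genes, 9 were over 2-fold higher in replicate 2, 3 lower and 10 within 2-fold, with a median log2 ratio of 0.51. With the GC trend subtracted, 4 were higher, 6 lower and 12 within 2-fold, beside 21.4% of all genes higher and 19.6% lower. Among the 9, Cldn5 and Gja4 passed the filter only through replicate 2. Cldn5, the tight junction claudin of endothelium, had 607 TPM in replicate 2 and 0.43 in replicate 1, on 11782 and 6 counts, a 1436-fold gap (708 to 4200). Set against Cdh5, Cldn5 stood at 4.24 times its TPM in replicate 2 and 0.00408 times in replicate 1, the widest change in proportion of the pairs compared. Icam2, an adhesion molecule for leukocytes, had 207 TPM in replicate 2 and 16.8 in replicate 1. Among the catenins that tie VE-cadherin to the cytoskeleton, Ctnnb1 had 270 TPM in replicate 2 and 538 in replicate 1, and Ctnna1 had 159 TPM in replicate 2 and 189 in replicate 1, both within 2-fold by counts. Jup, or plakoglobin, had 128 TPM in replicate 2 and 3.05 in replicate 1 and was 63.5-fold higher in replicate 2 (50.8 to 81.5), so the catenins did not share a direction.

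Of 15 further genes of the angiopoietin pathway, 14 passed the filter, with 6 higher, 3 lower and 5 within 2-fold and a median of 0.64, and Angpt4 was below 1 TPM in both libraries. Itgb1, the beta 1 integrin, had 207 TPM in replicate 2 and 595 in replicate 1. Pik3ca, a catalytic subunit of phosphoinositide 3-kinase, had 28.4 TPM in replicate 2 and 73.9 in replicate 1. Both were over 2-fold lower in replicate 2, the direction of Tek and Angpt1. With the GC trend subtracted, Itgb1 was at a log2 value of -0.11 and Pik3ca at 0.38, beside -0.61 for Tek and -0.42 for Angpt1. The 4 genes of highest mean TPM in this list lay lower in replicate 2, yet 6 others were higher, among them Akt1, a kinase downstream of Tek. Akt1 had 75.7 TPM in replicate 2 and 2.96 in replicate 1, a 27.7-fold gap (22.4 to 35.1). Itga5 was 50.8-fold higher in replicate 2 (30.5 to 98.9) and Grb7 36.7-fold (20.6 to 80.4), on 13 and 10 counts in replicate 1. Itga5, Grb7 and Dok2, at 0.28, 0.4 and 0 TPM in replicate 1, passed the filter only through replicate 2, so the filter fixed their direction. With the GC trend subtracted, Akt1 was at a log2 value of -0.11, Itga5 at 1.71 and Grb7 at 1.54. The adaptor Grb14 had 32.4 TPM in replicate 2 and 110 in replicate 1, but its counts differed by less than 2-fold.

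Of 9 further genes of the Robo and Slit family and its partners 7 passed, with 2 higher, 2 lower and 3 within 2-fold and a median of 0.08, and Robo3 and Slit1 were below 1 TPM in both libraries. The ligand Slit3 had 11.8 TPM in replicate 2 and 1.47 in replicate 1, the direction of Robo4. With the GC trend subtracted they parted, with Slit3 at a log2 value of 2.2 and Robo4 at -1.46. The receptor Robo2 had 6.89 TPM in replicate 2 and 15.2 in replicate 1, and the ligand Slit2 had 5.66 TPM in replicate 2 and 11.2 in replicate 1. Srgap2, an intracellular partner of Robo receptors, had 16.01 TPM in replicate 2 and 8.19 in replicate 1, and its log2 ratio of counts was 0.08.

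Of a list of 4 sialomucins with Egfl8, the relative of Egfl7, 2 were higher, 1 lower and 2 within 2-fold, with a median of 0.26. Cd164 had 127 TPM in replicate 2 and 606 in replicate 1, the direction of Emcn. With the GC trend subtracted they parted, with Cd164 at a log2 value of -0.8 and Emcn at 0.51. Cd34 had 102 TPM in replicate 2 and 159 in replicate 1, and Podxl, podocalyxin, had 75.4 TPM in replicate 2 and 69.1 in replicate 1. The 2 higher genes were Podxl2, with 5.44 TPM in replicate 2 and 0.17 in replicate 1, and Egfl8, with 3.79 and 0.1. Each rests on 1 count in replicate 1 and passed the filter only through replicate 2, so the filter fixed their direction. With the GC trend subtracted, all 5 genes of the list lay within 2-fold.

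**Figure D4:**
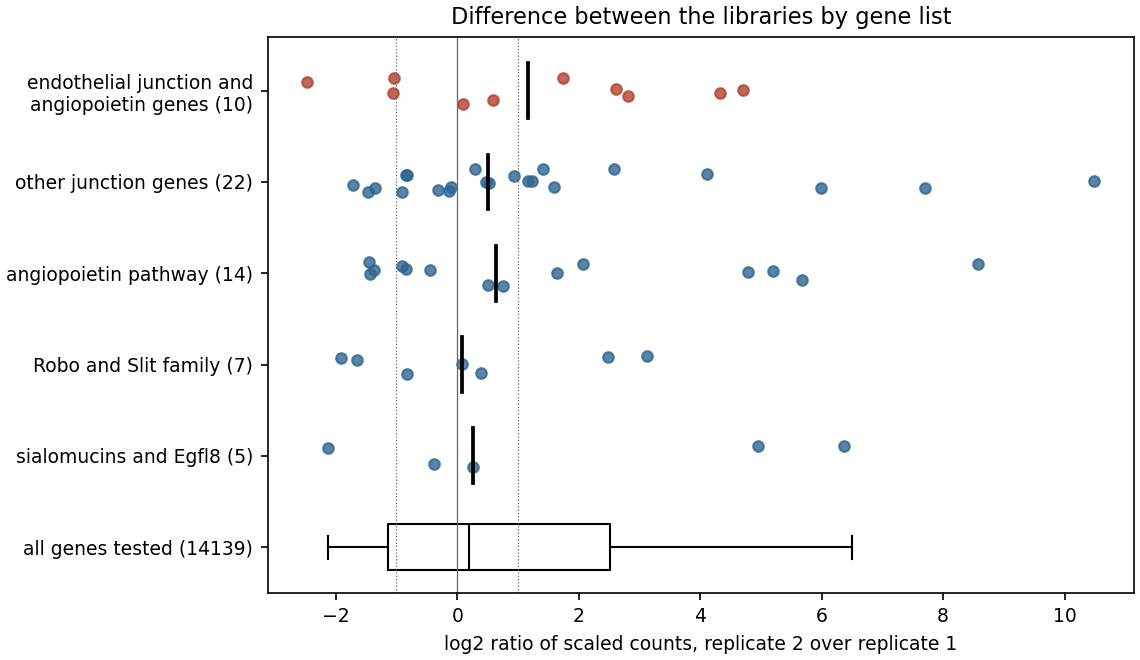
Log2 ratio of TMM-scaled counts, replicate 2 over replicate 1, for the 10 genes (red) and 4 lists of related genes (blue), with the number tested in brackets, black bars at the medians, dotted lines at 2-fold, and a box with quartiles and whiskers to the 5th and 95th percentiles for all 14139 genes tested. The medians lie between 0.08 and 1.17, and each list spreads to both sides of 0, as the whole table does.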

How the data were processed

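Polyadenylated RNA of 1 mouse lung was measured in 2 libraries. Per the file headers and the deposited descriptions, the authors quantified genes and transcripts of GENCODE release M4 on mm10; the software used for alignment and quantification is not given in the sources used here. The deposited expected counts are the authors' estimates of reads per gene, TPM and FPKM are the authors' abundances scaled for length and depth, and the deposited percent gives each transcript's share of its gene.

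Expected counts were rounded and scaled by TMM in edgeR 4.0.16 (R 4.3.3), with factors of 1.10 for replicate 2 and 0.913 for replicate 1. The log2 ratio used a prior of 0.5 counts. Intervals are exact Clopper-Pearson intervals at 95% and cover counting error only, since no molecular identifiers are described. A count of 0 allows 3 counts, or 0.175 CPM in replicate 2 and 0.186 CPM in replicate 1. Genes with a mean of at least 1 TPM were tested, and called means past 2-fold. The trend on GC content was fitted by lowess, span 0.3, in statsmodels 0.14.6. Ratios, intervals and trend were tested on simulated data.

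Symbols matched 42462 of 43346 genes. Positions, transcript structures and sequences came from GENCODE M21 on GRCm38, the assembly also called mm10, and the microRNA from RefSeq on the same assembly. All 10 genes are named, with Ptprb and the 4 genes of highest mean TPM of each related list; other genes named, among them Gp9, Jup, Akt1, Itga5, Grb7, Agpat2, Gm17473 and those below 1 TPM, were added after their values were seen. The members and lists were chosen with earlier results of these data known. Alternatives covered scaling (DESeq2 1.42.0 size factors, total counts, TPM), filters, the prior, the fold and GC content.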

Additional observations from a re-analysis of the deposited data

How the results depend on the processing

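Of 70 recomputed ratios of the 10 genes, 29 stayed within their counting interval, 36 moved beyond it, and 5 that were past 2-fold changed sign. These 5 came from subtracting a GC trend: with mean transcript GC, Esam was at -0.18, Emcn at 0.51 and Robo4 at -1.46, and with GC of the main transcript, chosen as an alternative after seeing the data, Robo4 was at -2.26 and Tie1 at -0.21. Ratios within 2-fold changed sign too: Cdh5, at 0.59, was at -0.55 and -0.68 under these trends, and Angpt2, at 0.10, was at -0.04 by TPM. The count of genes higher in replicate 2, 5, was 1 under either GC trend. The count lower, 3, was 1 by total counts, under either GC trend and past 4-fold. The median log2 ratio, 1.17, was 1.43 by total counts, 1.00 by TPM, 1.02 by posterior mean TPM, 1.74 for genes of at least 10 TPM, 0.00 under the GC trend and -0.15 with GC of the main transcript. In the 4 related lists 19 genes were higher, against 9 under the GC trend and 7 with GC of the main transcript. Those lower numbered 9, against 9 and 10. Leaving out a library put the summed TPM between 721 and 1551. The cause of these shifts was not tested. No paired analysis was possible because the study has 1 group. Depth limits Robo4, Tie1, Angpt2 and Egfl7 in replicate 1, on 151, 157, 288 and 311 counts.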
